A study of Mus musculus with 2 samples.

Results

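The genes described here were the WNT ligand gene Wnt5a, its receptor genes Ror1 and Ror2, the co-receptor genes Lrp5 and Lrp6, and the secreted modulator genes Sfrp1, Sfrp2, Dkk2 and Dkk3. They were taken by symbol, and all 9 of 9 were found among the 32285 genes of the count tables. Their levels were measured by single-nucleus RNA-seq (snRNA-seq) in periosteum and hematoma/callus of injured tibias from C57BL6 mice, 5 days after musculoskeletal traumatic injury (MTI), a tibial fracture combined with damage to the muscle beside it. A second library, from the same tissue 1 day after fracture alone, is described only in the closing section. Nuclei of 3 or 4 mice were pooled in each library, no nucleus could be assigned to a mouse, and both groups of nuclei in each comparison below came from this 1 library. The study had no replicate of either condition, so no p-value is given. Each interval is an exact 95% interval that covers counting error alone.

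WNT5A is a secreted ligand that acts mainly outside the β-catenin branch of WNT signalling, through the ROR1 and ROR2 receptors, and it guides cell polarity and the elongation of cartilage. LRP5 and LRP6 pair with Frizzled receptors to start the β-catenin branch, which drives osteoblast formation and restrains the chondrocyte fate. SFRP1 and SFRP2 bind WNT ligands outside the cell. DKK2 binds LRP5 and LRP6, and DKK3 is a divergent relative of the DKK family.

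Of the 9 members, 4 had an entry in the RefSeq promoter table, and Wnt5a, Lrp5, Lrp6, Sfrp1 and Dkk3 did not. The promoters of Ror1 and Ror2 are printed because these receptors took different levels in the cartilage-marker nuclei described further on, and those of Sfrp2 and Dkk2 because neither had a UMI there. Each run below is the 250 bases before the start of the gene in build GRCm38.p6, 5′ to 3′ on the strand of the gene. The Ror1 stretch is chr4:100095541-100095790 on the plus strand, and that of Ror2 is chr13:53286125-53286374 on the minus strand. The Sfrp2 stretch is chr3:83766071-83766320 on the plus strand, and that of Dkk2 is chr3:132085042-132085291 on the plus strand. Capitals mark the letters TATAAA, searched on the strand of the gene.
Ror1: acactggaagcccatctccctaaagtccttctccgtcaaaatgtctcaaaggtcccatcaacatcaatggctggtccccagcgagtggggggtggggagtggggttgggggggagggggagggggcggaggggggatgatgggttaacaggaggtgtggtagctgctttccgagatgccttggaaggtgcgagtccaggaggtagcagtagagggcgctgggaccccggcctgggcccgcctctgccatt
Ror2: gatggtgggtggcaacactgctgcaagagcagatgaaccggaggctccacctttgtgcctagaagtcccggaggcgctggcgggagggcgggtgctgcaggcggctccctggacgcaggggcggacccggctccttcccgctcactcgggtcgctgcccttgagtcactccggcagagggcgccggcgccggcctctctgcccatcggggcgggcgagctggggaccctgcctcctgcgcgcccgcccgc
Sfrp2: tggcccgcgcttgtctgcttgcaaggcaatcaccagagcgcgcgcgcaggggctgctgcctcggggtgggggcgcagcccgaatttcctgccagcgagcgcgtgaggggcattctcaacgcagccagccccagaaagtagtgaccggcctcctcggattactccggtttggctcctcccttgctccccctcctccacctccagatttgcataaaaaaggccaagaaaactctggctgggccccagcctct
Dkk2: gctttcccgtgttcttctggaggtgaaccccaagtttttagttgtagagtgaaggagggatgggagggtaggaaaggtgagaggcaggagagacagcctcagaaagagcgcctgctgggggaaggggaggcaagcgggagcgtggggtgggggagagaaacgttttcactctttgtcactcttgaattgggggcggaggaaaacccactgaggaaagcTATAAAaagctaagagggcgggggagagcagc
The Ror2 stretch held 24 CG pairs and 73.2% G and C, and the Ror1 stretch held 8 CG pairs and 62.4%. Sfrp2 had 16 CG pairs and Dkk2 had 7, against a median of 6 over the 32851 promoters of the table. Dkk2 alone held TATAAA, which stood in 7.59% of all promoters. The TCF/LEF letters TTCAAAG and ATCAAAG, searched on both strands, were in none of the 4 stretches and in 7.48% of all promoters.

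The MTI library held 1446 barcodes with 500 to 45740 UMIs (unique molecular identifiers, which count captured RNA molecules) each, and 1131 nuclei with 4349804 UMIs passed the filters. Markers named 481 immune-like nuclei, 177 skeletal nuclei, 101 myogenic-like nuclei and smaller endothelial-like, osteoclast-like and erythroid-like clusters, and 3 clusters stayed unnamed. The libraries of day 1 and of MTI shared 33 barcodes, 2.28% of those of MTI. Levels are UMIs summed over a group of nuclei per 1000000 UMIs of that group (CPM).

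The skeletal nuclei did not separate along the labels chondrogenic and Dpp4-side, and both clusters are therefore called by their leading genes. The 103 nuclei with the higher level of cartilage markers were led by Ibsp and Sp7, which are on the osteoblast marker list, and had a median of 7795 UMIs. Few of them carried these genes. Ibsp had a UMI in 8 of the 103 nuclei, with 173 of its 192 UMIs in 3. Sp7 had a UMI in 16 nuclei, with 34 of its 58 UMIs in 3. The 74 nuclei with the higher level of stem and progenitor (SSPC) markers were led by Pgr and Dpp4 and had a median of 1511.5 UMIs. Of the 47 Dpp4 UMIs in that second cluster, 38 came from 3 nuclei, and Ly6a, another SSPC marker, had 1 UMI there. The other SSPC markers, Cd34 and Pi16, had 15 and 9 UMIs there, with 11 and 8 of them in 3 nuclei. In the Ibsp/Sp7-led cluster, which held 869378 UMIs against 158563, Dpp4, Cd34 and Pi16 had 3, 7 and 4 UMIs. When all nuclei were clustered at resolution 2.0, 49 of these 74 nuclei fell in a cluster of 77 that was named pericyte/smooth muscle-like and held 45 Dpp4 UMIs. Markers of injury-induced fibrogenic cells (IIFCs) stood at 7355 CPM in the Ibsp/Sp7-led and at 6130 CPM in the Pgr/Dpp4-led cluster. The 5 pericyte and smooth muscle markers were at 541 and 221 CPM, and the 10 myogenic markers at 56.4 and 397 CPM. The part of the depth gap and of these other markers in the values that follow was not tested.

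Cartilage markers were held by a few nuclei. In 10 of the 177 skeletal nuclei, at least 1% of the UMIs came from the 9 chondrocyte markers (from 1.47% to 2.93%), and the next nucleus stood at 0.311%. These cartilage-marker nuclei, which were picked by their markers after values of the data had been seen, held 98886 UMIs in all, with a median of 9310.5. They carried 648 UMIs of Col2a1, the main collagen of cartilage, 379 of Acan and 44 of Sox9, and none of Pdgfra, a receptor of fibroblastic skeletal cells. From the osteoblast list, Sp7 had 18 UMIs in 8 of these nuclei and Ibsp had 12 UMIs in 2. Of the 10, 9 lay in the Ibsp/Sp7-led cluster and 1 in the Pgr/Dpp4-led cluster. They were compared with 67 IIFC-like nuclei, which held 504559 UMIs with a median of 5977. This cluster formed when the skeletal nuclei were divided more finely (resolution 1.0). Of the 67 nuclei, 66 lay in the Ibsp/Sp7-led cluster and 1 in the Pgr/Dpp4-led cluster. The 5 IIFC markers were at 809 CPM in the cartilage-marker nuclei and at 9053 CPM in the IIFC-like nuclei. The 5 immune markers were at 324 and 234 CPM, the 10 myogenic markers at 20.2 and 75.3 CPM, and the 5 pericyte and smooth muscle markers at 91.0 and 319 CPM. Ratios without nuclei that carry the last list are given below, and the part of the other lists was not tested.

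Ror1 and Ror2 separated in the cartilage-marker nuclei, with Ror2 at the level of the IIFC-like nuclei and Ror1 far below it. Sfrp1, Sfrp2, Dkk2 and Dkk3 had no UMI in the cartilage-marker nuclei, while all 4 were found in IIFC-like nuclei. Lrp6 stood at similar levels in both groups. The data by gene follow, and the plot of members in 4 groups of skeletal nuclei shows them side by side.

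Wnt5a, the ligand, had 0 UMIs in the cartilage-marker nuclei, which allows up to 30.3 CPM (3 UMIs), and 9 UMIs or 17.8 CPM (8.16 to 33.9) in the IIFC-like nuclei. The difference was not detectable at this depth.

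Ror2, the receptor through which WNT5A acts in limb cartilage, had 60 UMIs or 607 CPM (463 to 781) in the cartilage-marker nuclei. From the nucleus richest in cartilage markers to the poorest, the nuclei held 5, 9, 16, 9, 2, 5, 5, 0, 5 and 4 Ror2 UMIs. Ror2 was therefore present in 9 of 10 nuclei and no single nucleus set its level. The IIFC-like nuclei had 329 UMIs or 652 CPM (583 to 726), a ratio of 0.931 (0.695 to 1.23), with an interval that lies within 2-fold on both sides.

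Ror1, the second receptor of the family, had 7 UMIs or 70.8 CPM (28.5 to 146) in the cartilage-marker nuclei. In the same order, these nuclei held 0, 2, 0, 2, 1, 0, 0, 0, 2 and 0 UMIs. In the IIFC-like nuclei Ror1 had 263 UMIs in 43 nuclei or 521 CPM (460 to 588), a ratio of 0.136 (0.0541 to 0.284). Every cartilage-marker nucleus held 2 Ror1 UMIs or fewer, and the intervals of both groups lay well apart. Ror1 was uneven among the IIFC-like nuclei, many of which also held few or none. It had a UMI in 43 of the 67, and 3 of them held 71 of the 263 UMIs.

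The composition of the ROR pair showed the same separation without any scaling by depth. Ror2 made up 60 of 67 ROR UMIs in the cartilage-marker nuclei, or 89.6% (Clopper-Pearson interval 79.7 to 95.7%). In the IIFC-like nuclei it made up 329 of 592, or 55.6% (51.5 to 59.6%), and in the Pgr/Dpp4-led cluster 72 of 122, or 59.0% (49.7 to 67.8%). After each nucleus was thinned to 500 UMIs, Ror2 was seen in 40.0% of the cartilage-marker and 29.9% of the IIFC-like nuclei. Ror1 was seen in 0 of 10 (up to 30.8%) and in 22.4% (13.1 to 34.2%). The intervals of both groups overlapped for each gene, so thinned shares of nuclei did not resolve the Ror1 difference. Before thinning, Ror2 had a UMI in 90.0% and 83.6% of nuclei, and Ror1 in 40.0% and 64.2%, again with overlapping intervals. In the 481 immune-like nuclei, whose median depth was 2839 UMIs, unthinned shares were 1.25% for Ror2 and 1.46% for Ror1. After thinning they were 0.208% and 0.416%. The source of these UMIs was not tested.

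Lrp6, a co-receptor of the β-catenin branch, had 39 UMIs or 394 CPM (280 to 539) in the cartilage-marker nuclei, found in 9 of 10. Against 159 UMIs or 315 CPM (268 to 368) in the IIFC-like nuclei, the ratio was 1.25 (0.858 to 1.79). Lrp5, the co-receptor known for setting bone mass, had 4 UMIs or 40.5 CPM (11.0 to 104) against 25 UMIs or 49.5 CPM (32.1 to 73.1), and neither co-receptor stood apart from counting error.

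Sfrp1 had 53 UMIs in 24 IIFC-like nuclei or 105 CPM (78.7 to 137), with at most 8 in 1 nucleus. With 0 UMIs in the cartilage-marker nuclei, set to 3, the ratio was at most 0.289, and its exact interval reached up to 0.368. Sfrp2 had 71 UMIs in 17 IIFC-like nuclei or 141 CPM (110 to 177). Its ratio was at most 0.216, with an exact interval up to 0.272. A single IIFC-like nucleus held 33 of those Sfrp2 UMIs, and without it the ratio was at most 0.429.

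Dkk2 had 66 UMIs in 9 IIFC-like nuclei or 131 CPM (101 to 166). Its ratio was at most 0.232, with an exact interval up to 0.293. Here 1 nucleus held 31 UMIs, and without it the ratio was at most 0.468. Dkk3 had 47 UMIs in 21 IIFC-like nuclei or 93.2 CPM (68.4 to 124), spread over nuclei with at most 8 each. Its ratio was at most 0.326, with an exact interval up to 0.417. Without the 3 IIFC-like nuclei that held most UMIs of each gene, the ratios were at most 0.436 for Sfrp1 and 0.552 for Sfrp2. The bound for Dkk3 lay between them. The exact intervals reached up to 0.567 for Sfrp1, 0.729 for Sfrp2 and 0.658 for Dkk3. For Dkk2 those 3 nuclei held 54 of the 66 UMIs (81.8%), and without them the ratio was at most 1.22, so the Dkk2 difference rested on 3 nuclei and was not detectable in the others. Leaving out nuclei with 3 or more UMIs of pericyte and smooth muscle markers left 8 and 50 nuclei, with a Ror1 ratio of 0.112, a Ror2 ratio of 1.12 and ratios of at most 0.490 for Dkk3 and at most 0.292, 0.205 and 0.264 for Sfrp1, Sfrp2 and Dkk2.

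Of the 9 members, 8 had at least 10 UMIs in both groups together. None of these 8 was 2-fold or more higher in the cartilage-marker nuclei. The 5 that were 2-fold or more lower were Ror1, Sfrp1, Sfrp2, Dkk3 and, through 3 IIFC-like nuclei, Dkk2. Their median ratio over all 8 was at most 0.307, because ratios that are bounds entered medians at the bound, here and below. Over the 7654 genes with as many UMIs, 15.4% were 2-fold or more higher and 20.2% were 2-fold or more lower, with a median ratio of 1.00.

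**Figure D1:**
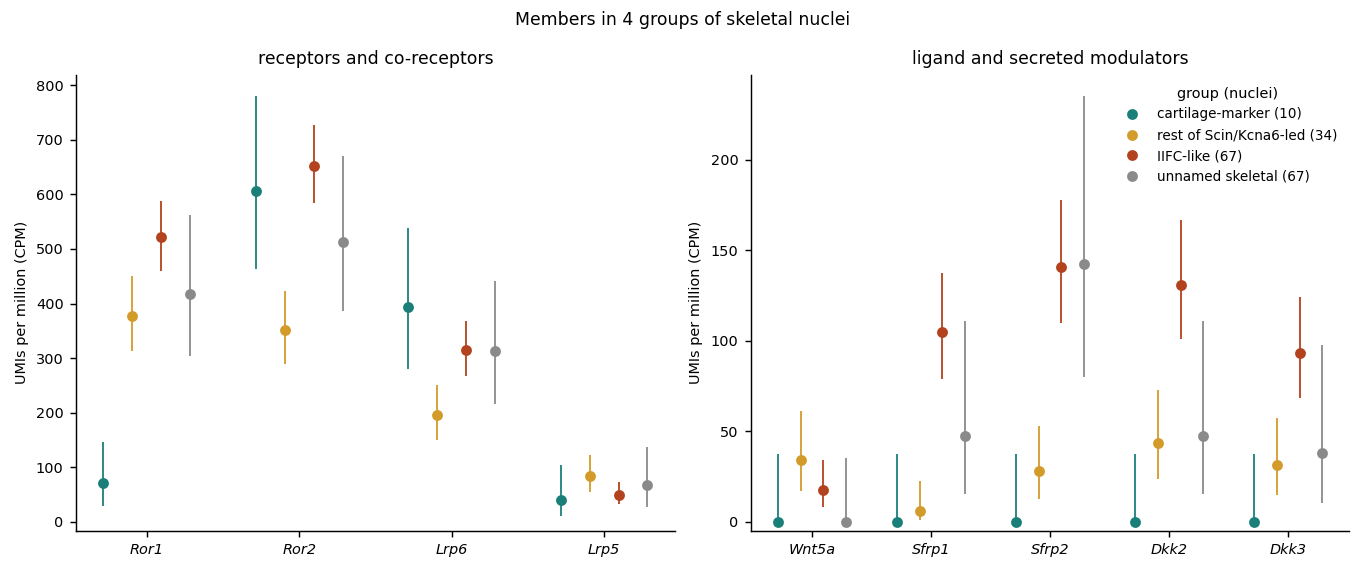
Levels (CPM, vertical axis) of the 9 members in 4 groups of skeletal nuclei, with the number of nuclei in brackets; points are summed UMIs per 1000000 and lines are exact 95% Poisson intervals. Ror1 of the cartilage-marker nuclei lies at 70.8 CPM while their Ror2 lies at 607 CPM, and the 4 secreted modulators are at 0 there; 1 cartilage-marker nucleus also belongs to the unnamed group.

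The finer division also gave a mixed cluster led by Scin and Kcna6, which held 9 of the 10 cartilage-marker nuclei. Its other 34 nuclei also had low modulator levels, while their Ror1 level was higher than in the cartilage-marker nuclei. These 34 nuclei had chondrocyte markers at 87.1 CPM, pericyte and smooth muscle markers at 933 CPM and SSPC markers at 183 CPM. In these 34 nuclei Sfrp1 had 2 UMIs or 6.22 CPM (0.753 to 22.5), 0.0592 (0.00699 to 0.225) times the IIFC-like level. Sfrp2 had 9 UMIs and was 0.199 (0.0874 to 0.399) times the IIFC-like level. Dkk2 had 14 UMIs with a ratio of 0.333 (0.173 to 0.599), and Dkk3 had 10 UMIs with a ratio of 0.334 (0.150 to 0.669). Ror1 had 121 UMIs or 376 CPM (312 to 450) in the same 34 nuclei, and the cartilage-marker nuclei stood at 0.188 (0.0741 to 0.400) times that level. Ror2 had 113 UMIs or 351 CPM (290 to 422) there, so that the cartilage-marker nuclei were 1.73 (1.24 to 2.38) times higher, and their Lrp6 level was 2.01 (1.31 to 3.05) times higher.

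**Figure D2:**
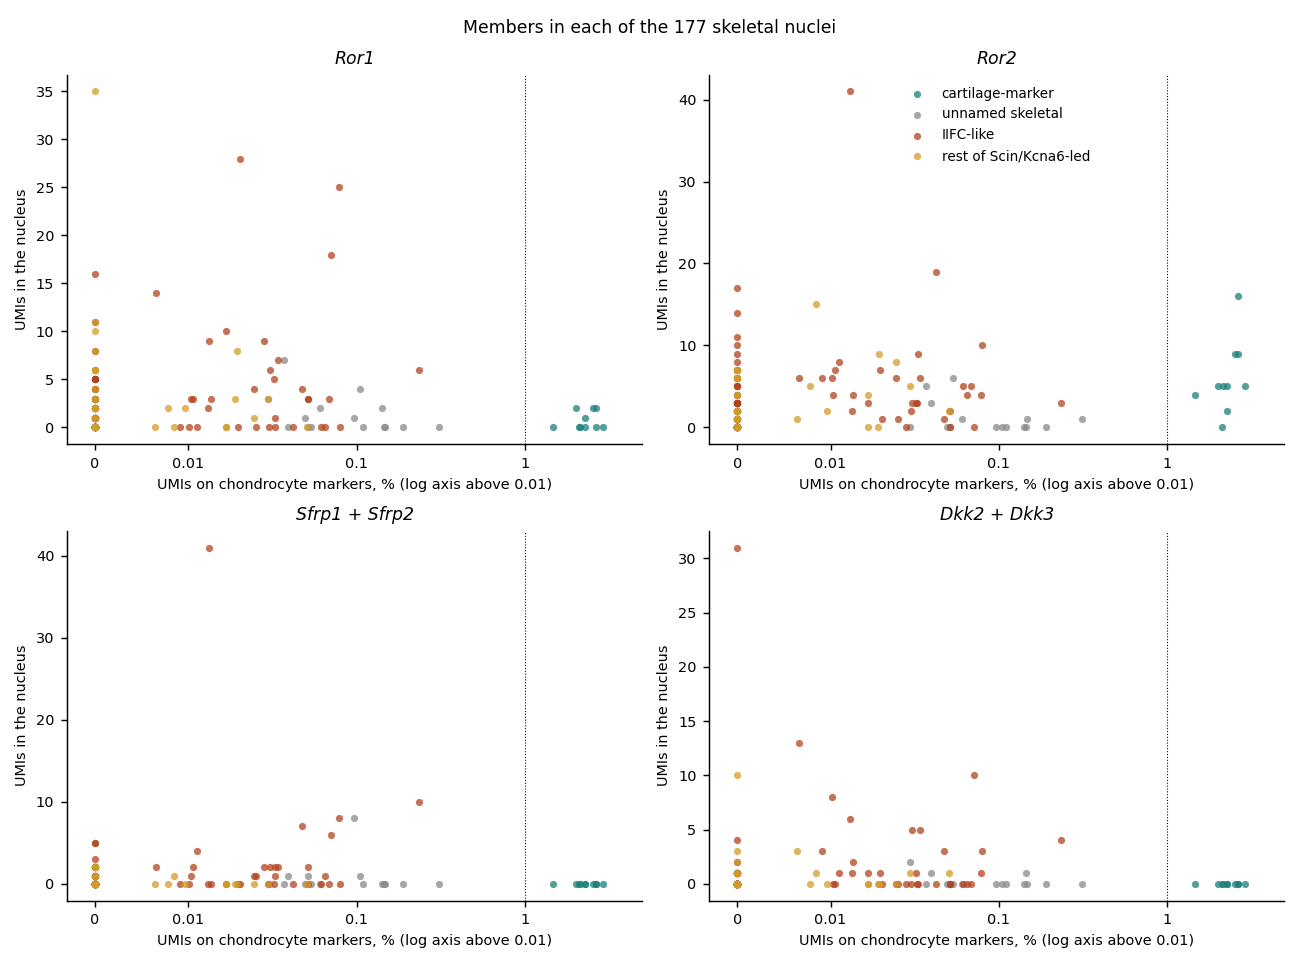
UMIs of Ror1, Ror2, the sum of Sfrp1 and Sfrp2, and the sum of Dkk2 and Dkk3 (vertical axes) in each of the 177 skeletal nuclei against the percentage of the nucleus's UMIs on chondrocyte markers (horizontal, log axis above 0.01); colours give the group and the dotted line the threshold of 1%. Right of the line Ror2 reaches 16 UMIs, Ror1 stays at 2 or fewer, and both modulator sums are at 0.

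Along a coarser ranking by cartilage markers the modulators took another order. The 103 nuclei of the Ibsp/Sp7-led cluster were ranked by their share of chondrocyte marker UMIs and split into 3 near-equal groups, whose highest, of 34 nuclei, held 9 cartilage-marker nuclei beside others with a far lower share. Sfrp2 stood at 25.8, 170 and 70.1 CPM from the lowest to the highest group. Sfrp1 stood at 47.2, 78.3 and 58.4 CPM and Dkk3 at 38.6, 98.7 and 52.5 CPM. These 3 genes were thus highest in the middle group, although the intervals overlapped for Sfrp1 and Dkk3. The nucleus richest in Sfrp2 held 33 of the 50 Sfrp2 UMIs of the middle group, so this peak rested largely on that nucleus. The Sfrp2 order without it was not computed. Dkk2 stood at 180, 71.5 and 49.6 CPM and was lowest in the group richest in cartilage markers. Its intervals in the middle and highest groups overlapped. The nucleus richest in Dkk2 held 31 of the 42 Dkk2 UMIs of the group poorest in cartilage markers. The Dkk2 fall thus rested largely on that nucleus, and the order without it was not computed. Ror1 stood at 541, 402 and 412 CPM and Ror2 at 515, 643 and 496 CPM.

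Some other WNT pathway genes also differed between the cartilage-marker and the IIFC-like nuclei. Of 83 further genes in 8 sets, 39 had at least 10 UMIs in both groups together. Of these 39, 9 were 2-fold or more higher and 7 were 2-fold or more lower, with a median ratio of 1.23. Over all 7654 genes with as many UMIs, 15.4% were 2-fold or more higher and 20.2% were 2-fold or more lower. No UMI was found for 20 of the 83. Frzb, a secreted WNT binder of the SFRP family found in cartilage, had 27 UMIs in 7 of the 10 cartilage-marker nuclei and 1 UMI in the IIFC-like nuclei, a ratio of 138 (22.7 to 5640). The SFRP genes thus took opposite sides, with Frzb counted in the cartilage-marker nuclei and Sfrp1 and Sfrp2 in the IIFC-like nuclei.

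Wnt5b, the close relative of Wnt5a, had 52 UMIs or 526 CPM in 7 cartilage-marker nuclei and 40 UMIs or 79.3 CPM in the IIFC-like nuclei, a ratio of 6.63 (4.31 to 10.3). Lrp4, a relative of Lrp5 and Lrp6 that binds the inhibitor sclerostin, had 39 UMIs and a ratio of 6.22 (3.80 to 10.3), though 3 nuclei held 34 of the 39. Wls, which carries WNT ligands to the cell surface, was lower, with 10 UMIs against 180 and a ratio of 0.283 (0.134 to 0.533).

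The R-spondin set split. Lgr4, a receptor of R-spondins, had 70 UMIs in the cartilage-marker nuclei and a ratio of 11.5 (7.45 to 18.2), though 30 of them came from 1 nucleus. Rspo3 had 22 UMIs and a ratio of 5.61 (2.92 to 10.8), with 12 from 1 nucleus. Lgr5 had 0 UMIs against 65, a ratio of at most 0.235 (exact interval up to 0.298). Rspo2 had 0 against 73, a ratio of at most 0.210 (exact interval up to 0.264), with 52 of those 73 in 1 IIFC-like nucleus.

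In the branch of planar cell polarity, which WNT5A and the ROR receptors feed, Prickle2 had 1 UMI in the cartilage-marker nuclei against 218 in 46 IIFC-like nuclei, a ratio of 0.0234 (0.000590 to 0.132). Its relative Prickle1 lay on the other side of 1, though under 2-fold, with 134 UMIs against 352 and a ratio of 1.94 (1.58 to 2.38). Daam2, an actin regulator of this branch, was higher with 13 UMIs and a ratio of 4.15 (1.83 to 9.19), though 3 nuclei held 12 of the 13. The other genes past 2-fold rested on few UMIs. These were Gsk3a at 4.25 (1.03 to 16.7), Dvl2 at 2.55 (0.684 to 8.19), Pygo2 at 2.32 (0.632 to 7.24), Dvl1 at 0.464 (0.0108 to 3.19), Kremen1 at 0.276 (0.0322 to 1.07) and Dact1 at 0.255 (0.00616 to 1.60).

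**Figure D3:**
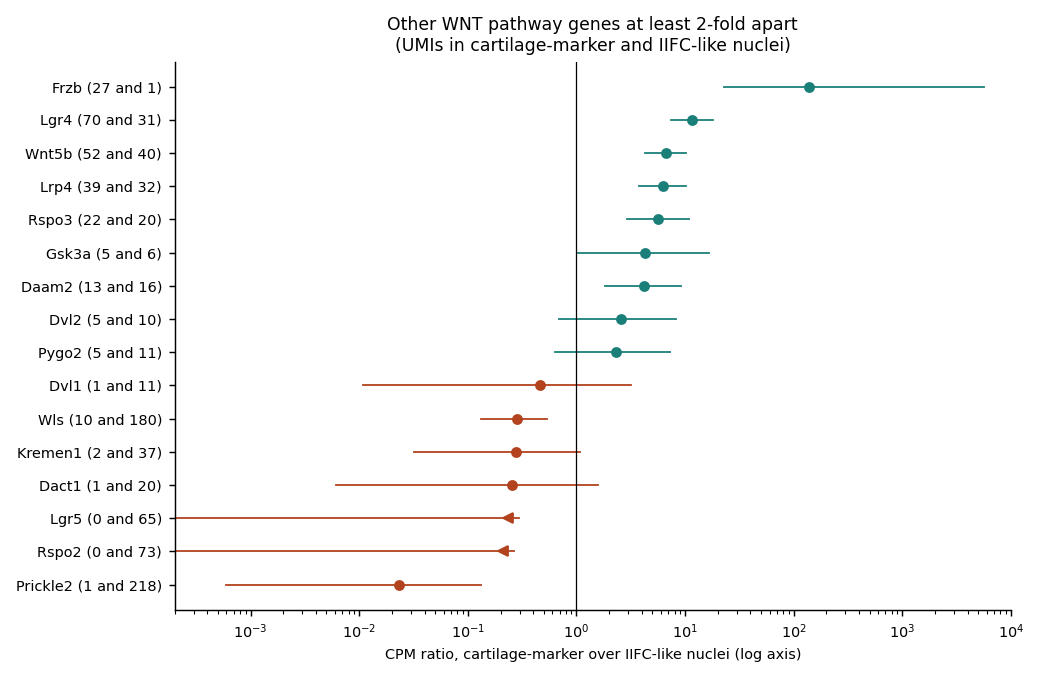
CPM ratios of the 16 other WNT pathway genes at least 2-fold apart between cartilage-marker and IIFC-like nuclei (horizontal, log axis), with exact 95% intervals; the UMIs of both groups stand in brackets and a left-pointing triangle marks an upper bound from 0 UMIs. Frzb lies highest at 138 and Prickle2 lowest at 0.0234.

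Between the Ibsp/Sp7-led and the Pgr/Dpp4-led cluster the members differed little. The 103 nuclei of the Ibsp/Sp7-led cluster were 66 IIFC-like nuclei and 37 nuclei of the Scin/Kcna6-led cluster. The IIFC-like nuclei held 53 Sfrp1, 71 Sfrp2, 66 Dkk2 and 47 Dkk3 UMIs, and 11 Ibsp UMIs. Of the 9 members, 2 were 2-fold or more higher in the Ibsp/Sp7-led cluster (Dkk2 and Dkk3) and 0 were 2-fold or more lower. Their median ratio was 1.22, with Wnt5a entered at its bound from 0 UMIs in the Pgr/Dpp4-led cluster. The exact interval of the Wnt5a ratio started at 0.900 and included equality. Of the 9622 genes with at least 10 UMIs in both clusters together, 15.8% were 2-fold or more higher and 9.06% were 2-fold or more lower, with a median ratio of 1.06. With 9 genes, 2 of 9 cannot be set apart from the share of all genes.

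Wnt5a had 20 UMIs in 11 of the 103 Ibsp/Sp7-led nuclei or 23.0 CPM (14.1 to 35.5). It had 0 in the Pgr/Dpp4-led cluster, which allows up to 18.9 CPM as set here and up to 23.3 CPM by the exact interval. The Wnt5a difference was therefore not apart from counting error. Ror1 had 385 UMIs or 443 CPM (400 to 489) and 50 UMIs or 315 CPM (234 to 416), a ratio of 1.40 (1.04 to 1.93). Ror2 had 479 UMIs or 551 CPM (503 to 603) and 72 UMIs or 454 CPM (355 to 572), a ratio of 1.21 (0.945 to 1.58). Both receptors were thus counted in each cluster at levels of the same order. The Ror1 ratio turned to 0.732 when the skeletal nuclei were divided at resolution 1.0, and to 0.837 without an upper limit on genes per nucleus.

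Lrp6 gave 293 and 246 CPM, a ratio of 1.19 (0.849 to 1.72), and Lrp5 gave 59.8 and 69.4 CPM, a ratio of 0.862 (0.444 to 1.83). Sfrp1 had 54 and 6 UMIs with a ratio of 1.64 (0.707 to 4.67), and Sfrp2 had 80 and 15 UMIs with a ratio of 0.973 (0.556 to 1.82). These 4 intervals include equality. At resolution 1.0 of the skeletal subset Sfrp1 was 0.101, Sfrp2 0.151 and Lrp6 0.778. With nuclei assigned one by one from their markers Lrp6 was 9.12, on 1 UMI in the Dpp4-side group.

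Dkk2 had 80 and 5 UMIs, or 92.0 and 31.5 CPM, a ratio of 2.92 (1.20 to 9.23) that turned to 0.704 at resolution 1.0. The 80 UMIs came from 12 nuclei. Dkk3 had 56 and 5 UMIs, a ratio of 2.04 (0.825 to 6.54) with an interval that includes equality, and it was 0.629 at resolution 1.0, so both members counted as 2-fold higher lay below 1 there. Only 5 nuclei of the Pgr/Dpp4-led cluster held 3 or more UMIs of SSPC markers, and in their 24579 UMIs Ror1 had 7, Ror2 6 and Dkk3 1. The other 6 members were at 0 in these 5 nuclei, where 0 allows up to 122 CPM, so their levels in Dpp4-bearing nuclei were not resolved at this depth.

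Of the 83 further WNT genes, 44 had at least 10 UMIs in this comparison. Of these 44, 13 were 2-fold or more higher in the Ibsp/Sp7-led cluster and 4 were 2-fold or more lower, with a median ratio of 1.37. Over all 9622 genes with as many UMIs, 15.8% were 2-fold or more higher and 9.06% were 2-fold or more lower. In the R-spondin set, 4 of 4 such genes were higher, with a median ratio of 6.46. Lgr5 had 119 and 5 UMIs with a ratio of 4.34 (1.81 to 13.6), although 1 nucleus held 52 of the 119 and 3 held 82. Lgr4 had a ratio of 2.40 (1.34 to 4.75) and Rspo3, with 47 and 1 UMIs, of 8.57 (1.47 to 346). Rspo2 had 78 and 1 UMIs and a ratio of 14.2 (2.48 to 569), although 1 nucleus held 52 of the 78.

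Znrf3, a membrane inhibitor that R-spondins remove, had 153 and 8 UMIs, a ratio of 3.49 (1.73 to 8.23). Wnt5b was 3.02 (1.42 to 7.68), Lrp4 2.09 (1.06 to 4.69) and Bcl9, a β-catenin partner, 2.33 (1.14 to 5.53) times higher. Porcn, Fzd3, Frzb, Nkd1 and Vangl2 were higher at ratios of 2.92 to 4.01 with intervals that include equality, on 2 UMIs or fewer in the Pgr/Dpp4-led cluster. Sfrp4 was lower with 4 and 9 UMIs, a ratio of 0.0811 (0.0182 to 0.290). Axin1, a scaffold of β-catenin breakdown, was lower at 0.373 (0.217 to 0.662) and Dact1 at 0.415 (0.197 to 0.933), while Dvl1 at 0.469 (0.187 to 1.33) had an interval that includes equality.

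**Figure D4:**
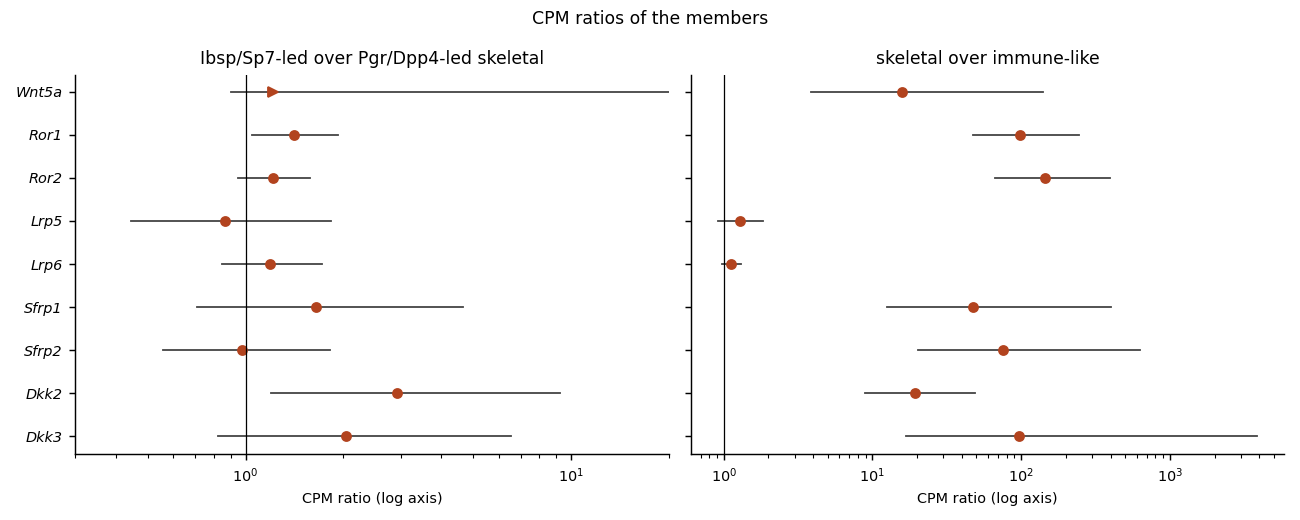
CPM ratios of the 9 members (horizontal, log axes) between the Ibsp/Sp7-led and the Pgr/Dpp4-led skeletal clusters (left) and between all 177 skeletal and all 481 immune-like nuclei (right), with exact 95% intervals. The triangle marks a lower bound for Wnt5a, whose interval has no upper end; Lrp5 and Lrp6 lie near 1 on the right while the other 7 lie between 15.8 and 145.

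Against the immune-like nuclei, 7 of the 9 members were higher in skeletal nuclei, and Lrp5 and Lrp6 stood at like levels. The share of all genes with such a difference was not computed. Of the Ror1 UMIs of all retained nuclei, 55.8% lay in skeletal nuclei, and other clusters with Ror1 are given below. All skeletal nuclei together had 20 Wnt5a UMIs and the immune-like nuclei 2, a ratio of 15.8 (3.85 to 140). Ror1 had 435 and 7 UMIs, a ratio of 98.4 (47.4 to 246), and Ror2 had 551 and 6 UMIs, a ratio of 145 (66.4 to 398). Of the Ror2 UMIs of all retained nuclei, 83.6% lay in the Ibsp/Sp7-led and 12.6% in the Pgr/Dpp4-led cluster, so the gene marked skeletal nuclei in this library.

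Sfrp1 was 47.5 (12.6 to 401) and Sfrp2 75.2 (20.3 to 630) times higher in skeletal than in immune-like nuclei. Dkk2 was 19.2 (8.94 to 49.3) and Dkk3 96.6 (16.7 to 3878) times higher, the latter against 1 immune-like UMI. Lrp6 had 294 and 413 UMIs, or 286 and 254 CPM, a ratio of 1.13 (0.967 to 1.31). Lrp5 had 63 and 77 UMIs, or 61.3 and 47.3 CPM, a ratio of 1.30 (0.914 to 1.83). The co-receptors were thus read at like levels in both lineages, apart from the ligand, the ROR receptors and the secreted modulators.

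The highest Ror1 level of the 16 clusters rested on 3 nuclei outside the skeletal clusters. An unnamed cluster of 24 nuclei led by Chodl and Pax7, the latter a factor of muscle stem cells, had 184 Ror1 UMIs in 14 nuclei or 974 CPM (838 to 1125). This was 2.20 (1.84 to 2.63) times the Ibsp/Sp7-led level, and its interval was apart from that of each other cluster. A single nucleus held 66 of the UMIs, and without it the level was 677 CPM. The 3 richest nuclei held 136 of the UMIs (73.9%), and the other 21 stood at 309 CPM, 0.697 (0.505 to 0.943) times the Ibsp/Sp7-led level and 0.869 (0.627 to 1.18) times that level once its own 3 richest nuclei were left out too.

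The myogenic-like cluster led by Myh8, a myosin of developing and regenerating fibres, had 98 Ror1 UMIs or 338 CPM (275 to 412), next to the skeletal levels. The other myogenic-like cluster had 27 UMIs or 64.0 CPM (42.2 to 93.2), and the former was 5.28 (3.42 to 8.41) times higher. Ror2 was nearly missing from these nuclei, with 0 UMIs against 184 of Ror1 in the Chodl/Pax7-led cluster and 2 against 98 in the Myh8-led cluster. Ror2 thus made up 0% (up to 1.98%), 2.00% (0.243 to 7.04%) and 6.90% (0.846 to 22.8%) of ROR UMIs in the Chodl/Pax7-led and both myogenic-like clusters, against 89.6% in the cartilage-marker nuclei.

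Ror2 followed another order, with 551 CPM in the Ibsp/Sp7-led cluster, 454 CPM in the Pgr/Dpp4-led cluster and 59.7 CPM (28.6 to 110) in the unnamed Clic6-led cluster, whose median depth was 691 UMIs. The first of these neighbours overlapped in their intervals and the second step did not. In every other cluster Ror2 had 2 UMIs or fewer.

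**Figure D5:**
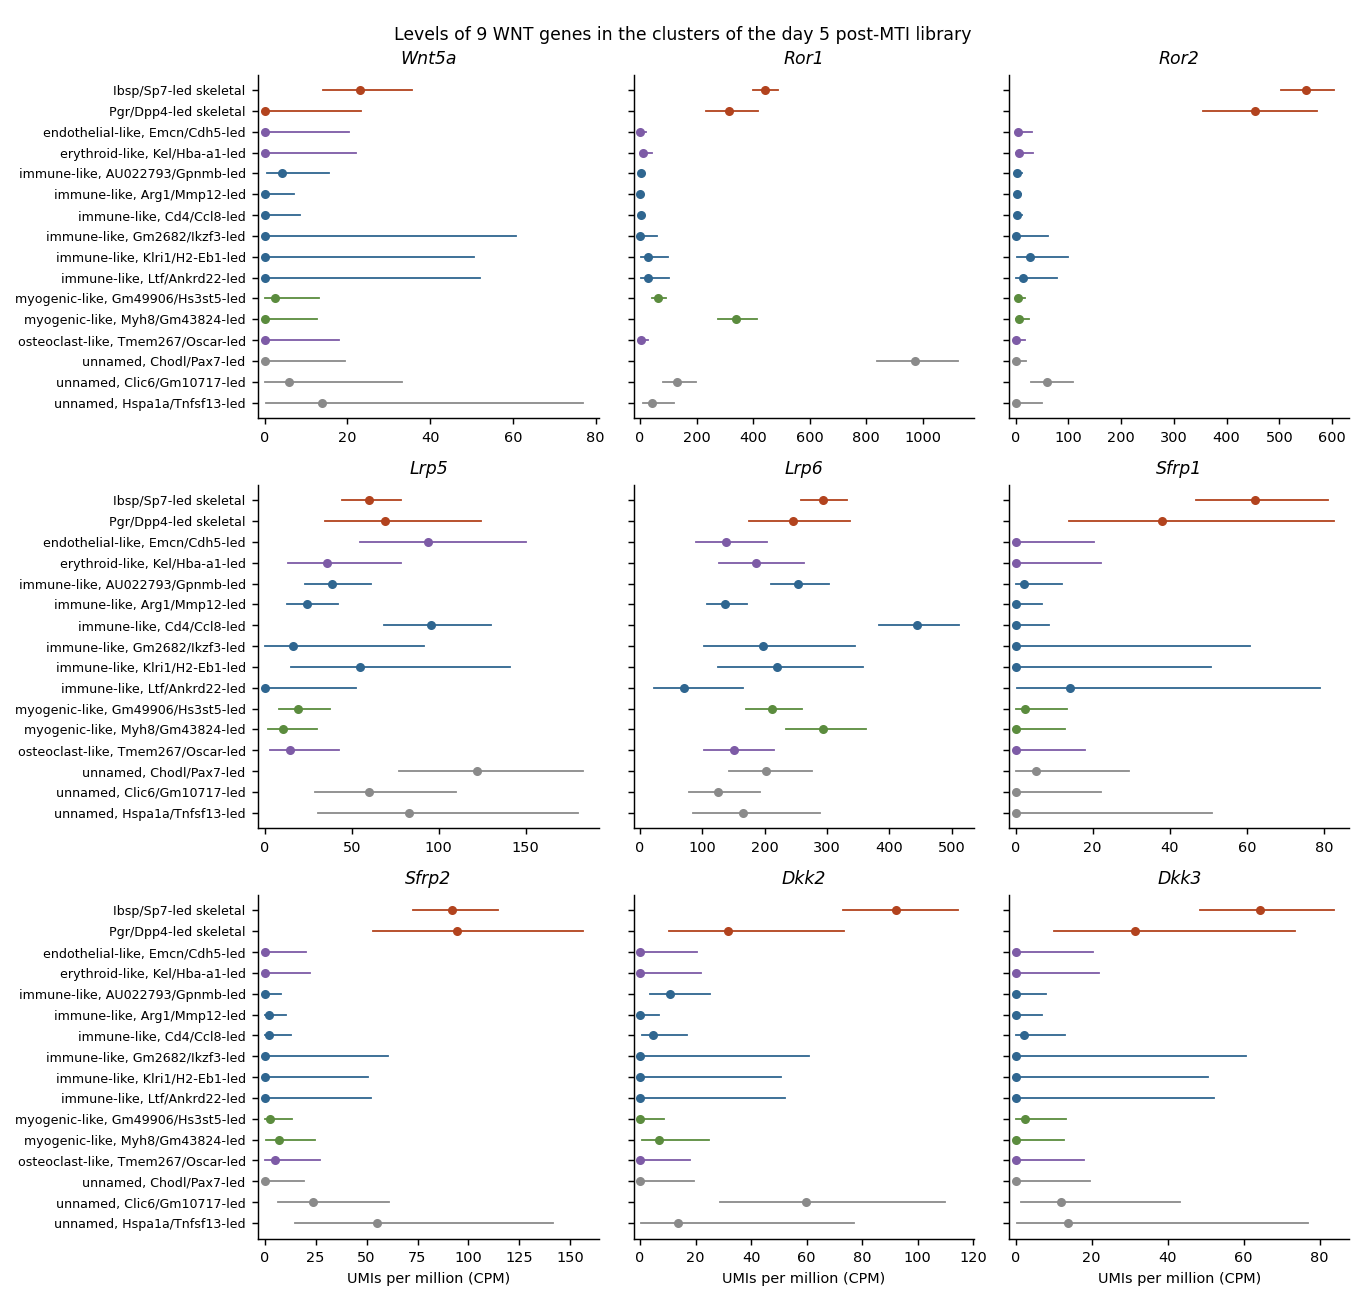
Levels (CPM, horizontal axes) of the 9 members in the 16 clusters of the MTI library, with exact 95% Poisson intervals; skeletal clusters are red, immune-like blue, myogenic-like green, unnamed grey and the others purple. Ror1 peaks at 974 CPM in the Chodl/Pax7-led cluster, where 3 nuclei hold 73.9% of its UMIs, Ror2 at 551 CPM in the Ibsp/Sp7-led cluster and Lrp6 at 443 CPM in the Cd4/Ccl8-led immune-like cluster.

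Lrp6 and Lrp5 varied within the immune-like nuclei. The cluster led by Cd4 and Ccl8 had 190 Lrp6 UMIs or 443 CPM (383 to 511), the highest of the 16 clusters, and the cluster led by Arg1 and Mmp12 had 72 UMIs or 136 CPM. Arg1 encodes an enzyme of wound macrophages. The Cd4/Ccl8-led level was 3.26 (2.47 to 4.34) times the Arg1/Mmp12-led level and 1.51 (1.25 to 1.83) times that of the Ibsp/Sp7-led skeletal cluster. Lrp5 showed the same order, with 41 UMIs or 95.7 CPM against 13 UMIs or 24.6 CPM, a ratio of 3.89 (2.05 to 7.92). The median depths of these immune-like clusters were 4133.5 and 3315 UMIs.

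Lrp5 was further read at 122 CPM (77.2 to 183) in the Chodl/Pax7-led and at 93.9 CPM (54.7 to 150) in the endothelial-like cluster. LRP5 is also known for its part in the growth of retinal vessels. The intervals of neighbouring clusters overlapped along the whole order for Lrp5. For Lrp6, the Cd4/Ccl8-led cluster alone was apart from its neighbour. Wnt5a, Sfrp1, Sfrp2 and Dkk3 had 4 UMIs or fewer in each cluster outside the skeletal nuclei, and Dkk2 had 10 UMIs or 59.7 CPM in the Clic6-led cluster and 5 UMIs or fewer in the others.

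Members met in the same nuclei to different degrees. Within the Ibsp/Sp7-led cluster, Ror2 had a UMI in 11 of the 11 nuclei with Wnt5a and in 73 of the 92 nuclei without it, and Ror1 in 7 of the 11 and 60 of the 92. The nuclei with a Wnt5a UMI were deeper, with a median of 13588 against 7491.5 UMIs. Of the 25 nuclei with Sfrp1, 11 (44.0%) had Sfrp2, against 12 of 78 (15.4%) without Sfrp1, although the nuclei with Sfrp1 were the shallower group with medians of 5595 and 9200.5 UMIs.

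Per length of the gene, the order of the members in the Ibsp/Sp7-led cluster differed from that of their CPM. Sfrp2, a gene of 8.00 kb, had the highest level with 11.5 CPM per kb, followed by Ror2 with 3.12, Lrp6 with 2.43, Sfrp1 with 1.63, then Dkk3, and Ror1 with 1.27. Wnt5a had 1.01, Dkk2 0.968 and Lrp5 0.588 CPM per kb. Ror1 spans 349 kb (chr4:100095791-100444765, plus strand) and Ror2 177 kb (chr13:53109312-53286124, minus strand) in mm10, and intronic reads were counted. Sfrp2 (chr3:83766321-83774316) and Wnt5a (chr14:28504750-28527448) overlap the genes Gm26771 and Gm2670, which lie on the opposite strand. Ror1 overlaps Gm12701 on its own strand and Gm12706 on the opposite strand. The part of these overlaps in the counts was not tested.

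The genes most like each member over the 16 clusters were taken by Pearson's r of log2(CPM + 10) among 9558 genes with at least 50 UMIs, as a description in which clusters share 1 library. Ror1 was most like Enox1 (0.97), Lama2 (0.95), a laminin chain gene, and Bnc2 (0.94). Ror2 was most like Ebf2 (0.95), Mfap5 (0.95) and Adamtsl3 (0.94). Sfrp2 was most like Scube2 (0.96), Dkk3 (0.95) and Pdgfra (0.95), and Dkk3 was most like Inhba (0.98), Pdgfra (0.97) and Scube2 (0.96).

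Dkk2 had Car12 (0.94), Scube2 (0.92) and Inhba (0.92) as nearest genes, and Sfrp1 had Carmn (0.94), Cacna1g (0.93) and Adamtsl3 (0.92). Lrp5 reached 0.86 with Rpl34 and 0.84 with Rpl18, and Lrp6 reached 0.79 with Mlh3 and 0.78 with Slc25a36 and Lmf1. The co-receptors thus had lower highest values than the other members, and Wnt5a had too few UMIs for this measure.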

How the data were processed

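Single-nucleus count tables of both libraries were used as deposited. The authors made these UMI counts per gene and nucleus with Cell Ranger 7.0.1 and mm10, per the file headers and the submitters' processing notes, with intronic reads included. The label protocols name a human reference, but the gene identifiers are those of mouse. Nuclei were sorted by the authors with a DNA dye before capture.

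From there, nuclei of the MTI library with 200 to 5000 genes were kept if mitochondrial UMIs made up less than 5% and ribosomal protein UMIs less than 2%, which are limits the methods state. Clusters were built in Seurat (version 5.3.0, R 4.3.3) from 30 components at resolution 1.0, and those of the skeletal nuclei from 15 components at resolution 0.5. Mitochondrial and ribosomal content was regressed out, and the members and 83 other WNT genes were left out of the 2000 variable genes. A cluster took a name with at least 3 raised markers of 1.5-fold, 1 of them among its 100 leading genes. Scrublet, through scanpy 1.11.5, marked 2 of 1419 nuclei (0.141%), too few to have worked, so doublets were kept. UMIs were summed per group in Python 3.11.15, with Poisson intervals for levels and conditional binomial intervals for ratios from scipy 1.17.1. A group at 0 was set to 3 UMIs, which makes its ratio a bound. A ratio was counted past 2-fold where both groups together had at least 10 UMIs. Shares of nuclei were also taken after thinning to 500 UMIs. The interval code was tested on simulated data with known ratios.

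All 9 members are named, with the other WNT genes past 2-fold between skeletal groups and the 3 genes most like each member with at least 30 UMIs. Prickle1, under 2-fold, is given beside Prickle2. Of the genes most like Lrp5, 1 is not reported here. Leading genes and the cartilage-marker nuclei were chosen after values were seen, and the members and lists were chosen with earlier results of these data known. Alternatives covered filters, resolutions, weighting and group definitions. No p-value was computed, since each condition had 1 library, and 0 columns lacked a sample.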

Additional observations from a re-analysis of the deposited data

Results flagged for a closer look

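Members were also counted in data that the comparisons leave out. In the 2405 retained nuclei of the day 1 post-fracture library (median 409 UMIs), Wnt5a had 8 UMIs, Ror1 111, Ror2 41, Lrp5 34, Lrp6 114, Sfrp1 15, Dkk2 34 and Dkk3 7, each above the limit of 3 UMIs that a count of 0 allows, and Sfrp2 had 0. Against the 43464 barcodes of the same library with under 200 genes, Sfrp1 was 2.51 (1.27 to 4.74) and Lrp6 1.35 (1.09 to 1.66) times higher per UMI, and for the other members the interval of the ratio included 1.

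The 315 barcodes of the MTI library that failed the filters held 1549603 UMIs. Among them Wnt5a had 18 UMIs, Ror1 268, Ror2 267, Lrp5 81, Lrp6 280, Sfrp1 73, Sfrp2 48, Dkk2 98 and Dkk3 52, again above that limit. Ror1 and Ror2 stood at 173 and 172 CPM there. These barcodes were not assigned to populations.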

How the results depend on the processing

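For the Ibsp/Sp7-led over the Pgr/Dpp4-led cluster, 84 of 116 alternative ratios stayed inside the counting interval of the reported ratio, 19 were bounds, and 18 lay on the other side of 1 (here and below these counts can overlap). Without a maximum of genes, Ror1 turned to 0.837, and Lrp6 was 0.789 and Sfrp2 0.536. With the subset at resolution 1.0, Ror1 turned to 0.732 and Dkk2 to 0.704, and Ror2 was 0.783, Lrp6 0.778, Sfrp1 0.101, Sfrp2 0.151 and Dkk3 0.629. At that resolution the cluster with more cartilage markers held 39 Dpp4 UMIs and the other 9, in 418183 and 105199 UMIs. Most Dpp4 UMIs thus lay in the deeper cluster, which does not show a higher Dpp4 level there. Most Dpp4 UMIs also lay in the cluster with more cartilage markers without a maximum of genes (82 and 8) and without the nuclei marked by Scrublet (41 and 9). Letting members and other WNT genes enter the variable genes gave 41 and 9 too. A minimum of 500 genes and 30 subset components each gave 27 and 23. In these settings the ratio was not taken over the cluster with more Dpp4 UMIs, and the Dpp4 levels per UMI were not compared. With nuclei assigned one by one from their markers (36 and 7 nuclei), Ror2 was 1.83 and Lrp6 9.12, the latter on 1 UMI in the 7 nuclei. Against Pgr/Dpp4-led nuclei with SSPC markers, Ror2 was 2.26 and Lrp6 at least 2.40. For skeletal over immune-like nuclei, 84 of 90 ratios stayed inside that interval, 3 were bounds and 2 lay on the other side of 1, and Lrp5 was 0.846 and Lrp6 0.804 at resolution 0.5, and Lrp6 was 1.51 with equal weight per nucleus. For cartilage-marker over IIFC-like nuclei, 46 of 81 stayed inside it, 26 were bounds and 9 lay on the other side of 1, and without the 3 IIFC-like nuclei richest in each gene the Dkk2 bound was at most 1.22. A threshold of 0.1% gave Ror1 0.291 and Sfrp2 0.430, and the whole Scin/Kcna6-led cluster gave Ror1 0.587, Ror2 0.616 and Lrp6 0.774. The highest over the lowest of the 3 groups ranked by cartilage markers gave Ror1 0.761 and turned Sfrp1 to 1.24, Sfrp2 to 2.72 and Dkk3 to 1.36. The cause of these shifts was not tested. This comparison and its alternatives, those without pericyte and smooth muscle marker nuclei or the richest nucleus or nuclei, and the one by SSPC markers were chosen after seeing the data. A mitochondrial limit of 0.5%, no regression and resolution 2.0 gave no pair of skeletal groups to compare, and equal weight gave no Wnt5a ratio between the clusters. At the 0.5% limit 79 skeletal nuclei were named chondrocyte-like and 57 IIFC-like, but the same cluster had the highest level of both cartilage and SSPC markers. Depth limits Wnt5a (25 UMIs in all retained nuclei) and every member in the 10 cartilage-marker nuclei, where 0 allows up to 30.3 CPM. No paired analysis was possible because each condition had 1 library.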
